A study of Mus musculus with 12 samples.

Results

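The 40 genes described here build and run the mitotic apparatus: the mitotic cyclins and their kinase, the spindle kinases and motors, the kinetochore, the spindle assembly checkpoint, the trigger of anaphase and the machinery of cytokinesis. They were chosen by name as a list from 53801 genes that the deposited tables share, and all 40 were found. The study sequenced RNA of sorted cells from squamous cell carcinomas of the skin in FVB mice, in 12 libraries of 4 groups with 3 libraries each. Basal tumor cells (YFP from a Rosa allele, with the integrins CD49f and CD29) were divided into those without and those with mScarlet, a fluorescent reporter of TGF-beta signalling, a growth factor pathway known for restraining epithelial proliferation. Tumor macrophages (CD45 and F4/80) were divided into those without and those with FceRIa on the surface, the chain of the high-affinity receptor that binds IgE. The labels name no driver of the tumors, no age and no sex, and do not say whether a replicate is a mouse or a pool, so the p-values describe only how far these samples spread, and that spread may be technical.

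Mitosis depends on proteins that a cell makes for a short window and then destroys. Cyclin B and its kinase drive entry, kinetochores attach chromosomes to spindle microtubules, and the checkpoint holds back the anaphase-promoting complex until every chromosome is attached. The messenger RNAs of most of these proteins peak together around mitosis, because cells repress the genes in quiescence through the DREAM complex and activate them later through MuvB with B-MYB and FOXM1. In bulk RNA such transcripts therefore serve as a readout of cycling cells. In sorted populations like these, a smaller share of dividing cells and less mitotic RNA per dividing cell cannot be told apart.

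DREAM and MuvB contact DNA at the cell cycle genes homology region (CHR), searched for here as TTTGAA or TTCGAA, and NF-Y binds the CCAAT box. Promoter windows of 300 bases (250 before to 50 after each start site) were taken from RefSeq on GRCm38.p6 for 34 of the 40 genes. Aurkb, Ccna2, Incenp, Kif20a, Spc24 and Tpx2 had no entry. Counting both strands, 27 of the 34 held a CHR match (79.4%, exact 95% binomial interval 62.1 to 91.3%), against 19.2% of all 32851 promoters in the table. A CCAAT match stood in 26 of 34 (76.5%, interval 58.8 to 89.3%), against 37.4% of all promoters. On the given strand alone, 18 of 34 held a CCAAT match (52.9%), against 21.1% of all promoters. A CHR match on that strand stood in 22 of 34 (64.7%), against 11.6%. A CHR and a CCAAT match can share no more than an end base, and 23 of 34 windows held both (67.6%), against 7.52% of all promoters. In 24 of 34 a CHR match began within 50 bases of the start site (70.6%), against 5.31% of all promoters. These intervals cover counting of genes only, and a match is a run of letters and not a shown binding site.

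The following stretches end at the base before the RefSeq start site. They are shown because these members carry the main results and because their layouts differ. Exons of the GENCODE M21 annotation cover 9 bases of the Cdc20, 26 of the Cdk1 and 6 of the Ncapg stretch. The distances given therefore depend on the annotation. Capitals mark CHR matches, with TTCAAA being the form on the other strand, and CCAAT boxes, with ATTGG being the form on the other strand. Each is read 5′ to 3′ along the gene.
Cdc20: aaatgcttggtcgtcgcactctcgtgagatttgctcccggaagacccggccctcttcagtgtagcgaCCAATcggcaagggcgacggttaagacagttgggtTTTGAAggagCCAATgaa
Cdk1: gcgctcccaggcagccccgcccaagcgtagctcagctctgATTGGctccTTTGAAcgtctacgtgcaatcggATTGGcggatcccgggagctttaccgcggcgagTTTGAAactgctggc
Top2a: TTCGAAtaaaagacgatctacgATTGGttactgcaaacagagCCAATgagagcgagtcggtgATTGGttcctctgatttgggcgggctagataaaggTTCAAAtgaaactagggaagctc
Ncapg: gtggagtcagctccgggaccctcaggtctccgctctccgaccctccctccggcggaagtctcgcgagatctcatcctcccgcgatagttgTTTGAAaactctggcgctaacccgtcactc
Kif11: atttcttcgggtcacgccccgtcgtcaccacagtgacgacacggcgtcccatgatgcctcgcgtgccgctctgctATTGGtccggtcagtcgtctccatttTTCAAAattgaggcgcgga
Mki67: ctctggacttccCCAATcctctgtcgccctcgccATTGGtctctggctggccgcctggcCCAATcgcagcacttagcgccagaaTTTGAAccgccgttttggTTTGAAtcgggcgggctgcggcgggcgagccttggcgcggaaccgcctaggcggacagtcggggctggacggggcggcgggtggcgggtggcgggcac
Pmf1: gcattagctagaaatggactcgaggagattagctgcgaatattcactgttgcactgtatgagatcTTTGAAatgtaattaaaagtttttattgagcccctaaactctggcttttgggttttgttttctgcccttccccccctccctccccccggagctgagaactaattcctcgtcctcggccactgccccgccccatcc
Birc5: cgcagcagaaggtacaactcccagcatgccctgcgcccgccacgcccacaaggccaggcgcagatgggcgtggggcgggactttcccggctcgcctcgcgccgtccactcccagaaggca

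The Cdc20 stretch (GRCm38.p6, chr4:118437344-118437463, minus strand) has a CHR match that begins 18 bases before the start site, between CCAAT boxes 53 and 8 bases before it. The Cdk1 stretch (chr10:69352913-69353032, minus strand) holds CHR matches 71 and 15 bases and CCAAT boxes 80 and 48 bases before the start. The Top2a stretch (chr11:99024190-99024309, minus strand) has CHR matches at 120 and 23 bases with 3 CCAAT boxes between them, at 98, 78 and 58 bases. Farther out, its window holds CHR matches at 179 and 140 bases and CCAAT boxes at 227, 189 and 149 bases. The Ncapg stretch (chr5:45669805-45669924, plus strand) carries a lone CHR match 30 bases before the start, and a CCAAT box lies outside the stretch at 176 bases. Kif11 (chr19:37376262-37376381, plus strand) has a CCAAT box at 45 bases and a CHR match at 19 bases. In Mki67 (chr7:135716380-135716579, minus strand) the pair of CHR matches lies farther out, at 116 and 98 bases, behind CCAAT boxes at 188, 166 and 141 bases. In Pmf1 (chr3:88410398-88410597, minus strand) the CHR match lies 135 bases before the start, and a CCAAT box outside the stretch begins 27 bases after it. The Birc5 stretch, shown for contrast (chr11:117849117-117849236, plus strand) holds neither motif, which says only that these letters are not in this window.

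**Figure D1:**
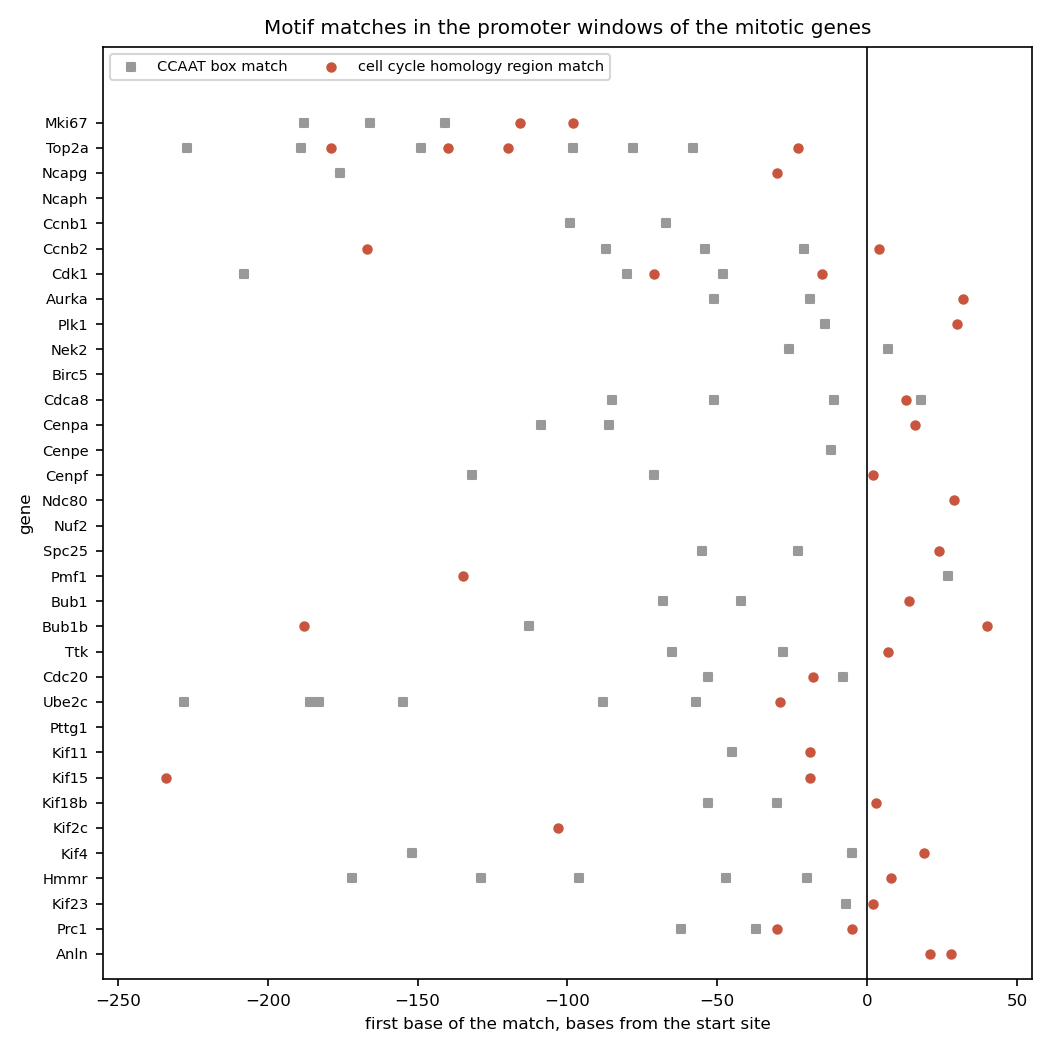
Position of the first base of each CHR match (circles) and each CCAAT box (squares), in bases from the start site (vertical line), in the promoter windows of the 34 matched genes, grouped by role; Prc1 has 2 listed start sites. CHR matches of 24 genes lie within 50 bases of the start site.

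All 40 genes passed the filter on low counts in both cell types. The lowest count of any of them in any library was 30, and 39 exceeded 1 CPM (a count divided by its TMM-normalized library size, on a common scale) in all 12 libraries. Library totals ran from 27951632 to 35088897 counts in the tumor cells and from 33704786 to 40041144 in the macrophages. The sorted populations carried their defining markers: Krt14 read 33000, 37910 and 34320 CPM in the reporter-negative and 32690, 41160 and 32260 CPM in the reporter-positive tumor cells, and Lyz2 7103, 6582 and 6017 CPM in the FceRIa-negative and 11600, 12260 and 14020 CPM in the FceRIa-positive macrophages. Values for 3 libraries are given throughout in the order of replicates 1, 2 and 3. Each comparison was fitted with edgeR both without pairing (unpaired, with group alone) and with replicate number added as a blocking term (paired), and adjusted p-values are Benjamini-Hochberg values over all genes tested. A fold is positive over negative. SE is a standard error derived from the unpaired test, as the size of the log2 difference divided by the square root of its quasi-likelihood F statistic. Whether counting used strand is not given in the sources used here. Reads of a gene on the other strand therefore cannot be told apart in the 10 genes whose exons overlap one: Ncapg, Ccna2, Plk1, Nek2, Cdca8, Cdc20, Ube2c, Kif4, Kif20a and Prc1. Top2a overlaps a small gene on its own strand.

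The tumor libraries of replicates 1 and 3 were close to copies of each other. Over all genes with at least 10 counts in a pair of libraries, the mean chi-square per gene, which is 1 for counting noise alone, was 2.97 between negative replicates 1 and 3 and 1.62 between positive replicates 1 and 3. It was 43.0 to 90.6 for the pairs that include replicate 2, and 51.3 to 138 between macrophage replicates. Replicates 1 and 3 thus differed by more than counting noise but by far less than either differed from replicate 2, and whether they are separate tumors is not given in the sources used here. Tumor results are therefore also given with replicates 1 and 3 summed and without replicate 2.

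In the tumor cells, mitotic transcripts were lower in the reporter-positive than in the reporter-negative libraries. Their summed level was 4698, 3770 and 4783 CPM in the negative and 3853, 2547 and 3939 CPM in the positive libraries (4417 ± 562 against 3446 ± 780.1, mean ± SD, n = 3 each). All 40 genes lay lower in the positive library of each of the 3 replicate numbers, as did 27.4% of the 13604 genes tested. The median positive-to-negative ratio was 0.822 in replicate 1, 0.679 in replicate 2 and 0.832 in replicate 3. In the unpaired test 2 of the 40, Pmf1 and Spc24, fell at an adjusted p under 0.05 and none rose, where 0.235% of all genes were called lower and 0.573% higher. At an unadjusted p under 0.05, 10 of the 40 were lower, as were 8.34% of all genes. In the paired test 34 of the 40 fell and none rose, where 7.34% of all genes were called lower and 10.7% higher. DESeq2 without pairing called 4 lower and none higher, against 1.45% and 2.58% of its 24760 genes, to which edgeR's filter on low counts was not applied. DESeq2's own default filter can leave low-count genes without an adjusted p, and such genes count here as not called. All 40 unpaired log2 differences lay below 0, as did 49.5% of all genes. Their median was -0.36, against 0.003 over all genes tested, and single genes ranged from 0.644-fold (Pmf1) to 0.912-fold (Cenpe). Nek2, Cenpe, Cenpf, Ttk, Hmmr and Prc1 were not called in the paired test.

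Size and calls varied with replicate 2. Positive replicate 2 had the lowest level of all 40 genes among the positive libraries, and negative replicate 2 the lowest level of 38 among the negative ones. The groups did not overlap in 11 of the 40, where 13.6% of all genes had every positive library below every negative one. Without positive replicate 2 the unpaired test called 4 of the 40 (1.67% of all genes) and the median log2 difference was -0.17. The unpaired edgeR count was 0 without any other single library, whether a negative library or positive replicate 1 or 3 was left out. At an unadjusted p under 0.05, 5 to 17 of the 40 were lower in these fits. Beside them 694 to 1137 of the 13850 to 13993 genes tested were lower. With replicate 2 left out of both groups 36 of the 40 fell, paired or unpaired, beside 2802 and 2619 of the 13620 genes tested. Such a fit sees only the closely matched replicates 1 and 3. With replicates 1 and 3 of each group summed as 1 sample, the unpaired edgeR test called 0 of the 40 and 0 of the 14404 genes tested. At an unadjusted p under 0.05 it had 4 of the 40 lower, beside 290 of all genes. The paired test of the summed samples called 15 of the 40 lower, beside 244 of all genes. All 40 log2 differences lay below 0 in both of those fits. Suprabasal keratinocyte markers (6 genes summed) stood at 176, 344 and 184 CPM in the negative and 378, 1373 and 356 CPM in the positive libraries. Macrophage markers (8 genes) stood at 14.0, 49.9 and 12.6 against 18.8, 70.9 and 15.6 CPM, so both lists were highest in replicate 2. Genes induced by tissue dissociation (10 genes) were lowest there, at 6041, 2686 and 5710 against 6632, 3295 and 6533 CPM. The part of these lists in the lower mitotic levels was not tested. The genes of these lists did not all move alike. In the paired test, which called 10.7% of all genes higher, 3 of 5 suprabasal genes tested were called higher. Of the 5, 2 lay below 0, and Sprr1a read 76.2, 76.8 and 79.5 against 233, 936 and 219.5 CPM. The macrophage list had 2 of 8 called higher, the dissociation list 5 of 10, and the list of 9 keratinocyte markers 2 higher with 5 below 0 and a median log2 difference of -0.005.

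**Figure D2:**
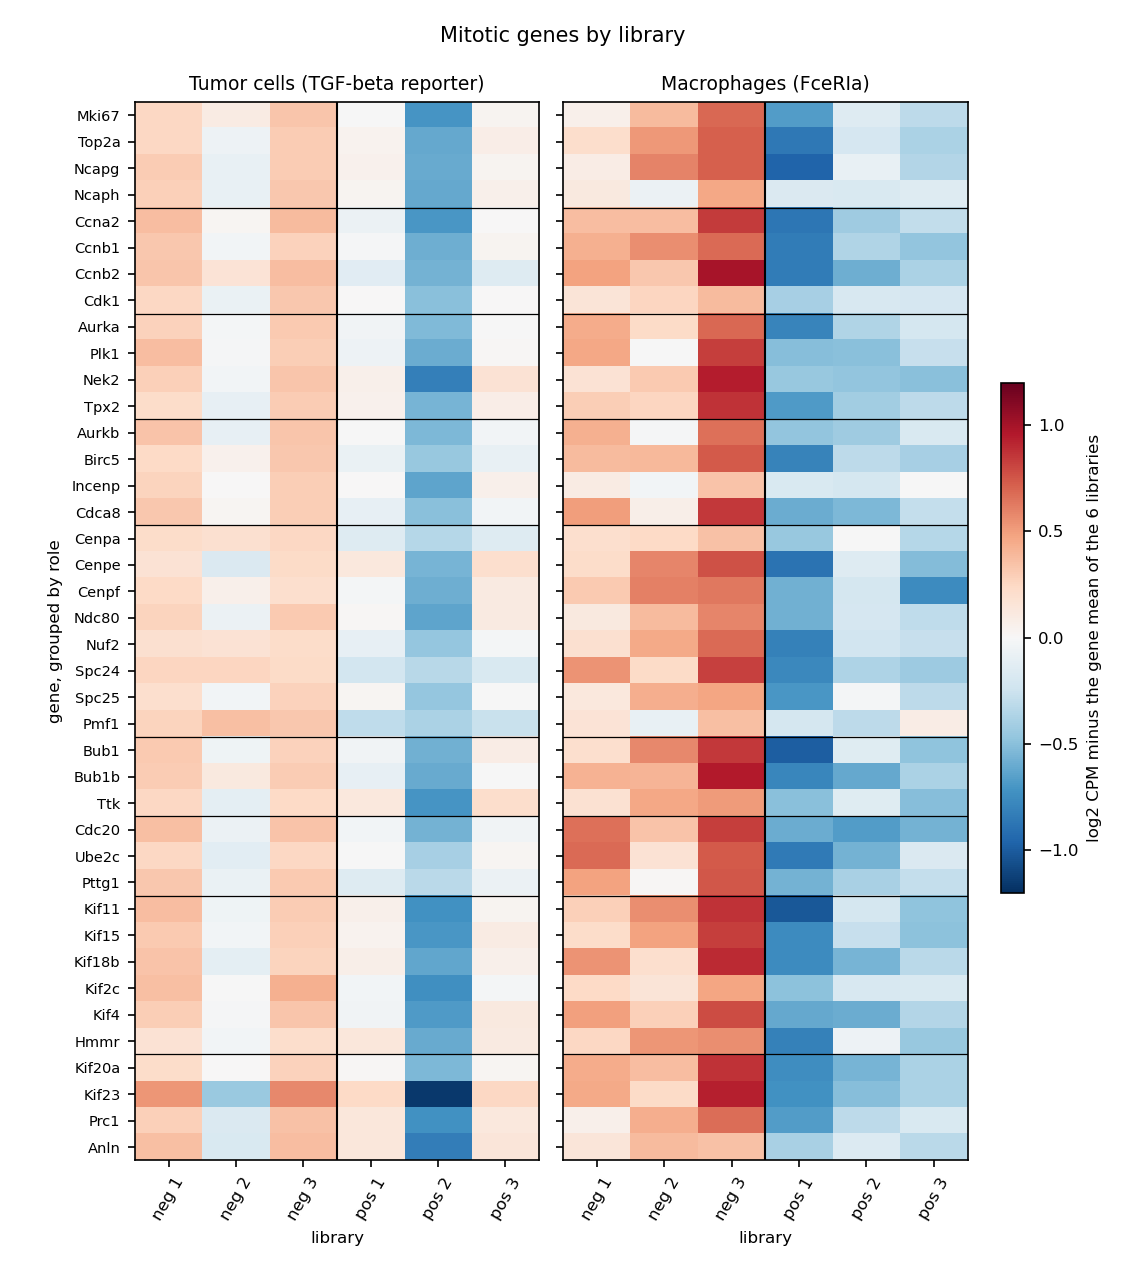
Level of each of the 40 genes by library, as log2 CPM minus the gene's mean over the 6 libraries of its cell type (red above, blue below), with genes in rows grouped by role and libraries in columns. Positive replicate 2 of the tumor cells is the bluest column there, and negative replicate 3 the reddest column of the macrophages.

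Among the genes of chromosome structure, Mki67, the nuclear antigen that marks proliferating cells and coats mitotic chromosomes, read 291, 262 and 308 CPM in the reporter-negative and 245, 151 and 251 CPM in the reporter-positive libraries. Its groups did not overlap, and it fell in the paired test only (log2 difference -0.42, SE 0.20, adjusted p 0.317 unpaired and 0.0388 paired). Top2a, the topoisomerase that untangles sister chromatids, read 495, 399 and 513 against 429, 271 and 439.7 CPM. Its negative replicate 2 lay below positive replicates 1 and 3 (log2 difference -0.30, SE 0.20, adjusted p 0.478 unpaired and 0.0380 paired). The condensin subunits Ncapg and Ncaph, which compact chromosomes, fell in the paired test as well, with folds of 0.797 and 0.799.

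The mitotic cyclins fell together in the paired test. Cyclin A, Ccna2, read 179.7, 142 and 181 against 132, 86 and 139 CPM with no overlap (log2 difference -0.49, SE 0.20, adjusted p 0.244 unpaired and 0.0106 paired). Cyclin B1, Ccnb1, read 145, 113 and 140.3 against 115, 77.5 and 118 CPM, and negative replicate 2 lay within the range of the positive libraries (log2 difference -0.36, SE 0.18, adjusted p 0.342 unpaired and 0.0174 paired). Ccnb2, the other B-type cyclin, read 94.6, 84.3 and 96.9 against 68.2, 50.8 and 67.4 CPM, the second lowest ratio of the list, with every positive library below every negative one (log2 difference -0.57, SE 0.13, adjusted p 0.0917 unpaired and 0.00624 paired). Cdk1, the kinase they activate, read 233, 186 and 246 against 198, 139 and 198 CPM (log2 difference -0.32, SE 0.17, adjusted p 0.379 unpaired and 0.0152 paired). The kinase was thus lower by a smaller step than Ccnb2, with negative replicate 2 below positive replicates 1 and 3.

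Of the kinases of entry and spindle assembly, Aurka (Aurora A, at the spindle poles) read 84.5, 68.7 and 87 against 67.9, 48.4 and 69.7 CPM (log2 difference -0.37, SE 0.16, adjusted p 0.282 unpaired and 0.0117 paired). Plk1, the polo-like kinase of centrosome maturation and mitotic exit, read 129.8, 99.7 and 124 against 96.7, 66.5 and 101 CPM (log2 difference -0.42, SE 0.18, adjusted p 0.272 unpaired and 0.0117 paired). In both the groups overlapped through negative replicate 2 and both fell in the paired test. Tpx2, which activates Aurora A on microtubules, fell in the paired test to 0.831-fold, and Nek2, a kinase of centrosome separation, was not called at 0.790-fold (paired adjusted p 0.111). In the chromosomal passenger complex, which corrects faulty attachments and later moves to the cleavage furrow, all 4 subunits fell in the paired test. Its kinase Aurkb read 79.9, 58.9 and 79.2 against 62.6, 43.4 and 61.4 CPM, with negative replicate 2 inside the positive range (log2 difference -0.38, SE 0.18, adjusted p 0.310 unpaired and 0.00825 paired). Birc5, survivin, read 121, 106 and 129 against 97, 74.5 and 96.6 CPM with no overlap (log2 difference -0.41, SE 0.13, adjusted p 0.152 unpaired and 0.00876 paired). The scaffold Incenp and Cdca8 (borealin) had folds of 0.783 and 0.751.

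The centromere and kinetochore genes held the only calls of the unpaired test. Pmf1, a subunit of the MIS12 complex that links centromere to outer kinetochore, read 65.9, 70.4 and 68.2 against 44.2, 42 and 45.4 CPM. The groups were far apart beside their spread, and Pmf1 had the lowest ratio of the 40 (log2 difference -0.64, SE 0.059, adjusted p 0.0341 unpaired and 0.00434 paired). Spc24, of the NDC80 complex that grips microtubules, read 40, 40 and 39.3 against 28.7, 26.6 and 29.4 CPM (log2 difference -0.49, SE 0.063, adjusted p 0.0412 unpaired and 0.00769 paired). Both genes kept replicate 2 close to replicates 1 and 3 in the negative cells, unlike most of the list. The same held for Cenpa, the histone H3 variant of centromeres, with 121, 118 and 123 against 92.9, 81.6 and 93.3 CPM (log2 difference -0.43, SE 0.071, adjusted p 0.0590 unpaired and 0.00748 paired), and for Nuf2, of the NDC80 complex, with 40.2, 39.6 and 41 against 32.7, 25.5 and 34.6 CPM (log2 difference -0.38, SE 0.12, adjusted p 0.151 unpaired and 0.0304 paired). Neither passed the unpaired threshold although neither overlapped. Ndc80 itself read 37.1, 29.3 and 38.3 against 31.1, 19.9 and 33.1 CPM, overlapping through negative replicate 2 (log2 difference -0.32, SE 0.21, adjusted p 0.467 unpaired and 0.0384 paired). Spc25, the partner of Spc24, had a fold of 0.821 and fell in the paired test. The motor Cenpe read 83.2, 65.7 and 86.8 against 80.4, 50 and 84.7 CPM, the smallest difference of the list (log2 difference -0.13, SE 0.21, adjusted p 0.800 unpaired and 0.222 paired). Without positive replicate 2 its unpaired log2 difference was 0.063, above 0. Cenpf, a large protein of the outer kinetochore, was not called either (fold 0.808, paired adjusted p 0.0779).

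In the spindle assembly checkpoint the kinase Bub1 read 65.8, 51.2 and 64.2 against 51.5, 35.7 and 56.4 CPM and overlapped through negative replicate 2 (log2 difference -0.34, SE 0.19, adjusted p 0.389 unpaired and 0.0246 paired). Bub1b (BubR1), which holds back the anaphase-promoting complex, fell in the paired test without overlap (fold 0.729, paired adjusted p 0.0169). Ttk, the kinase that starts the signal, read 47.2, 36.6 and 47.1 against 43.5, 24.4 and 45.9 CPM (log2 difference -0.20, SE 0.24, adjusted p 0.726 unpaired and 0.179 paired). Its libraries of replicates 1 and 3 lay close together in both groups, and without positive replicate 2 the unpaired log2 difference was 0.028. Among the genes of anaphase, Cdc20, the activator of the anaphase-promoting complex and the target of the checkpoint, read 299, 223 and 296 against 229, 157 and 227 CPM (log2 difference -0.42, SE 0.18, adjusted p 0.279 unpaired and 0.00730 paired). It overlapped through negative replicate 2. Ube2c, the ubiquitin-conjugating enzyme of the complex, and Pttg1, the securin that restrains separase, fell in the paired test to 0.841-fold and 0.771-fold.

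Of the spindle motors, Kif11 (Eg5), which pushes the spindle poles apart, read 42.4, 31.5 and 40.5 against 34.2, 19.8 and 33.5 CPM with overlap (log2 difference -0.39, SE 0.23, adjusted p 0.421 unpaired and 0.0282 paired). Kif2c (MCAK), which depolymerises microtubules at faulty attachments, read 73, 56.6 and 76.4 against 55.5, 34 and 55.7 CPM without overlap, the third lowest ratio (log2 difference -0.50, SE 0.21, adjusted p 0.266 unpaired and 0.0103 paired). Hmmr, a spindle-assembly protein also known as a hyaluronan receptor, read 73.7, 64 and 75.6 against 71.6, 42.9 and 70.5 CPM (log2 difference -0.21, SE 0.20, adjusted p 0.645 unpaired and 0.173 paired). Replicates 1 and 3 of its groups lay close together and it was not called. Kif15, Kif18b and Kif4, which back up Eg5, shorten astral microtubules and act on chromosome arms, fell in the paired test with folds of 0.790, 0.808 and 0.771. In cytokinesis, Prc1, which bundles the microtubules of the central spindle, read 169, 123 and 177 against 152, 83.7 and 152 CPM and overlapped (log2 difference -0.28, SE 0.26, adjusted p 0.626 unpaired and 0.0520 paired). Kif20a and Kif23, kinesins of the central spindle, and Anln, the anillin scaffold of the contractile ring, fell in the paired test with folds of 0.806, 0.767 and 0.801. In Kif23 replicate 2 lay far below the others in both groups, with 126, 63.8 and 130.2 against 103, 39.1 and 104 CPM.

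In the macrophages the same 40 genes were lower in the FceRIa-positive libraries. Their summed level was 1231, 1306 and 1657 CPM in the negative and 666, 859.8 and 833 CPM in the positive libraries (1398 ± 227 against 786 ± 105, mean ± SD, n = 3 each), with no overlap. All 40 lay lower in the positive library of each replicate number, as did 28.4% of the 14988 genes tested, with median ratios of 0.484, 0.621 and 0.466. In 38 of 40 the groups did not overlap, against 9.78% of all genes with every positive library lower. The paired test called 39 lower and none higher, where 10.2% of all genes were called lower and 10.8% higher, and left out Ncaph. In edgeR's unpaired test 0 of the 40 and 0.0% of all genes passed in either direction. At an unadjusted p under 0.05, 37 of the 40 were lower in that test, beside 7.35% of all genes. The lowest adjusted p of the 40 was 0.0585 for Cdc20. DESeq2 without pairing called 35 of the 40 lower and none higher, against 1.94% and 1.84% of its 31543 genes, again without edgeR's filter on low counts. All 40 unpaired log2 differences lay below 0, as did 50.7% of all genes. Their median was -0.96, against -0.004 over all genes, and single genes ranged from 0.425-fold (Cdc20) to 0.827-fold (Incenp).

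Transcripts used as markers of other cells differed between the macrophage groups too. The 9 keratinocyte markers summed to 3858, 2840 and 2270 CPM in the negative and 2228, 1542 and 599 CPM in the positive libraries. On a common scale the negative libraries held 5.30, 3.86 and 3.04% of the mean tumor level of these markers and the positive ones 2.99, 2.07 and 0.808%. Of the 9 markers, 8 were called higher and 1 lower in tumor cells than in macrophages (unpaired edgeR test, lowest log2 difference -0.77). These percentages are therefore not a share of keratinocytes. The sum of the 40 mitotic genes stood at 30.2, 31.7 and 39.7% and at 15.9, 20.7 and 20.1% of its mean tumor level on that scale. Single genes differed widely. Ube2c stood at 11.7, 8.2 and 11.9% and at 3.99, 4.86 and 6.37%, and Mki67 at 69.1, 85.8 and 104% and at 40.9, 58.6 and 52.6%. Krt14, a defining keratin, read 1706, 1237 and 129 against 1189, 789 and 97.2 CPM and was lowest in replicate 3 of both groups. Cdh1 (E-cadherin) read 846, 547 and 1455 against 217, 139.7 and 306 CPM and Epcam 224, 163 and 529 against 30.3, 16.1 and 47 CPM, so these made up most of the keratinocyte sum of negative replicate 3. The 6 dendritic cell markers summed to 62.5, 227 and 243 against 14.5, 54.7 and 23.1 CPM. Most of that was Cd207 (langerin, a Langerhans cell lectin) at 44.2, 188 and 209.6 against 5.77, 37.7 and 13.3 CPM, while Xcr1 and Clec9a, which define cross-presenting dendritic cells, stayed under 1 CPM. Of 5 T cell markers tested, 4 were called lower and 1 higher in the paired test, with a median log2 difference of -2.16, although the 8 markers summed to 81.5, 73.0 and 72.9 against 125, 170.2 and 138.7 CPM. DESeq2 called 5 of the 8 lower and 1 higher. Of 4 neutrophil markers tested, 3 were called lower in the paired test (none of 5 by DESeq2), and the 5 markers summed to 594, 121 and 588 against 335, 140 and 235 CPM. Mast cells, which carry FceRIa, had markers that went both ways, with 1 of 5 called lower in the paired test and 3 of 5 below 0, and sums of 13.4, 13.1 and 19.6 against 5.06, 5.57 and 7.48 CPM. In the same test 8 of 9 keratinocyte and 3 of 5 dendritic cell markers tested were called lower. That test called 10.2% of all genes lower and 10.8% higher, and DESeq2 called 1.94% and 1.84%. Macrophage markers (8 genes) ran the other way, at 14880, 13760 and 12230 against 21370, 21340 and 23630 CPM. Genes induced by tissue dissociation (10 genes) summed to 3558, 1603 and 5304 against 3456, 1445 and 4117 CPM, lowest in replicate 2 of both groups. DESeq2 called none of these 10. The part of these other transcripts in the mitotic difference was not tested.

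**Figure D3:**
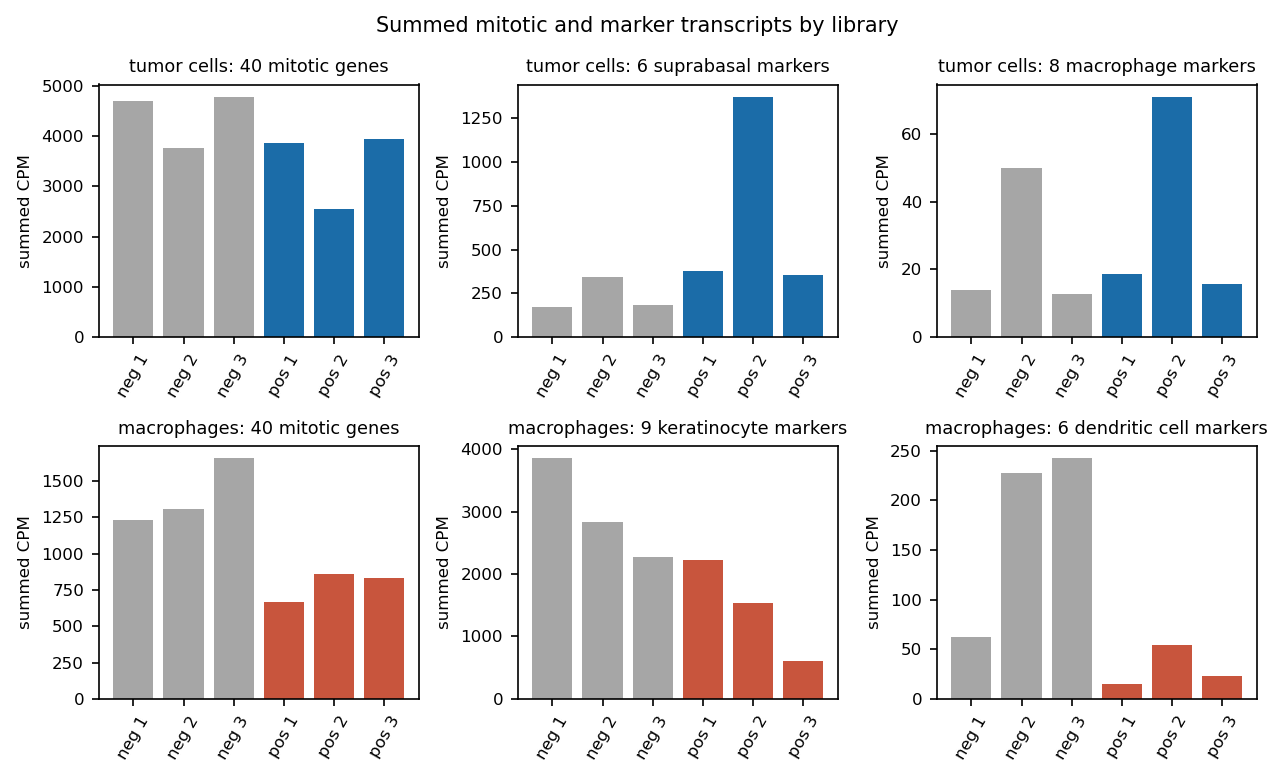
Summed CPM of the 40 mitotic genes and of marker lists in each library (bars, 1 per library, axes from 0), tumor cells above and macrophages below, with negative libraries in grey and positive ones in color. Mitotic sums of the FceRIa-positive macrophages lie at 666 to 859.8 CPM, all below the negative libraries at 1231 to 1657 CPM.

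Among the genes of chromosome structure, Mki67 read 180.3, 226 and 279 CPM in the FceRIa-negative and 109, 156 and 139.7 CPM in the FceRIa-positive libraries (log2 difference -0.76, SE 0.20, adjusted p 0.122 unpaired and 0.00172 paired), and Top2a 127, 157 and 181 against 60.7, 95.6 and 84.2 CPM (log2 difference -0.95, SE 0.21, adjusted p 0.0786 unpaired and 0.000549 paired). Neither overlapped, and both fell in the paired test. Of the condensin subunits, Ncapg fell in the paired test to 0.530-fold. Ncaph read 21.5, 18.9 and 27.3 against 17.5, 17.4 and 17.8 CPM (log2 difference -0.36, SE 0.16, adjusted p 0.347 unpaired and 0.0658 paired), the gene with the highest paired adjusted p of the 40. Its positive libraries were nearly equal to each other and lay just under negative replicate 2.

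Among the cyclins the ratios were lowest for Ccnb2, at 31.1, 28 and 44.4 against 12.5, 14.9 and 17.2 CPM (log2 difference -1.22, SE 0.21, adjusted p 0.0591 unpaired and 0.000396 paired). Ccnb1 read 15, 16.4 and 17.9 against 6.24, 8.65 and 8.04 CPM (log2 difference -1.10, SE 0.17, adjusted p 0.0587 unpaired and 0.000615 paired) and Ccna2 39, 38.8 and 53.9 against 16.6, 22.4 and 24.5 CPM (log2 difference -1.05, SE 0.20, adjusted p 0.0620 unpaired and 0.000460 paired). Their kinase Cdk1 differed less, at 33.1, 35.8 and 38.9 against 22.6, 26.2 and 25.9 CPM (log2 difference -0.53, SE 0.11, adjusted p 0.0787 unpaired and 0.00228 paired). All 4 fell in the paired test and none overlapped. Cdk1 kept 0.693 of its negative level where Ccnb1 kept 0.466, a difference between genes for which no test was made.

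Of the spindle kinases, Aurka read 18.4, 15.9 and 21.8 against 7.79, 10.5 and 11.6 CPM (log2 difference -0.91, SE 0.20, adjusted p 0.0841 unpaired and 0.00254 paired) and Plk1 15.5, 11.2 and 20 against 7.90, 7.92 and 9.28 CPM (log2 difference -0.89, SE 0.23, adjusted p 0.112 unpaired and 0.00364 paired). Both were apart in every library. Nek2 fell in the paired test to 0.504-fold, from 1.41, 1.56 and 2.40 to 0.912, 0.901 and 0.884 CPM, and Tpx2 to 0.513-fold. In the chromosomal passenger complex the ratios of the subunits spanned a range, and no test between these genes was made. Birc5 read 33.2, 33.3 and 42.5 against 14.7, 20.6 and 19.4 CPM (log2 difference -1.0, SE 0.17, adjusted p 0.0591 unpaired and 0.000775 paired), and the kinase Aurkb 19.9, 14.7 and 23.4 against 10.7, 11 and 13 CPM (log2 difference -0.74, SE 0.20, adjusted p 0.128 unpaired and 0.00458 paired). The scaffold Incenp read 64.3, 58.9 and 76 against 52.9, 52 and 59.8 CPM, with positive replicate 3 above negative replicate 2 (log2 difference -0.28, SE 0.13, adjusted p 0.368 unpaired and 0.0299 paired). It had the highest ratio of the list although it fell in the paired test, while Cdca8 fell to 0.509-fold.

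At the kinetochore, Ndc80 read 12.5, 15 and 17.3 against 7.74, 10 and 9.31 CPM (log2 difference -0.73, SE 0.18, adjusted p 0.105 unpaired and 0.00315 paired). Pmf1, the gene with the lowest ratio in the tumor cells, had the second highest ratio here, at 28.2, 23.5 and 32.2 against 21.7, 20.2 and 26.7 CPM with overlap (log2 difference -0.29, SE 0.17, adjusted p 0.497 unpaired and 0.0372 paired). The other 6 genes of the group fell in the paired test without overlap, from 0.480-fold (Spc24), 0.489-fold (Cenpe) and 0.494-fold (Cenpf) to 0.697-fold (Cenpa). Cenpe and Cenpf, which were not called in the tumor cells, thus lay below the median fold of the list, 0.515, in macrophages. Of the checkpoint genes, Bub1b and Bub1 lay below that median too. Bub1b read 40.2, 39.8 and 58.1 against 17.5, 19.6 and 23.1 CPM (log2 difference -1.2, SE 0.19, adjusted p 0.0591 unpaired and 0.000192 paired) and Bub1 25.3, 32.9 and 39.7 against 11.1, 19.9 and 15.9 CPM (log2 difference -1.06, SE 0.25, adjusted p 0.0987 unpaired and 0.000924 paired). Ttk fell in the paired test to 0.587-fold, above the median.

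Cdc20 had the lowest ratio of the 40 and the smallest p, at 31.2, 25 and 35 against 13, 12.4 and 13.4 CPM (log2 difference -1.24, SE 0.15, adjusted p 0.0585 unpaired and 0.000274 paired). Its 3 positive libraries lay close together, between 12.4 and 13.4 CPM. Ube2c fell to 0.482-fold and Pttg1 to 0.553-fold in the paired test. Of the motors, Kif11 read 9.55, 11.5 and 14.2 against 3.87, 6.74 and 5.60 CPM (log2 difference -1.12, SE 0.26, adjusted p 0.0911 unpaired and 0.00170 paired) and the chromokinesin Kif4 14.3, 12.3 and 17.3 against 6.60, 6.69 and 7.93 CPM (log2 difference -1.05, SE 0.18, adjusted p 0.0591 unpaired and 0.000748 paired). Both were apart between groups, and Kif2c, at 0.671-fold, differed least among the motors. In cytokinesis Kif20a, which brings the passenger complex to the central spindle, read 23.4, 22.2 and 31.4 against 10.2, 11.6 and 13.2 CPM (log2 difference -1.14, SE 0.18, adjusted p 0.0591 unpaired and 0.000386 paired). Prc1 read 19.5, 25.3 and 29.8 against 11.7, 15 and 16.5 CPM (log2 difference -0.79, SE 0.20, adjusted p 0.114 unpaired and 0.000823 paired). Kif23 and Anln fell in the paired test to 0.467-fold and 0.666-fold.

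**Figure D4:**
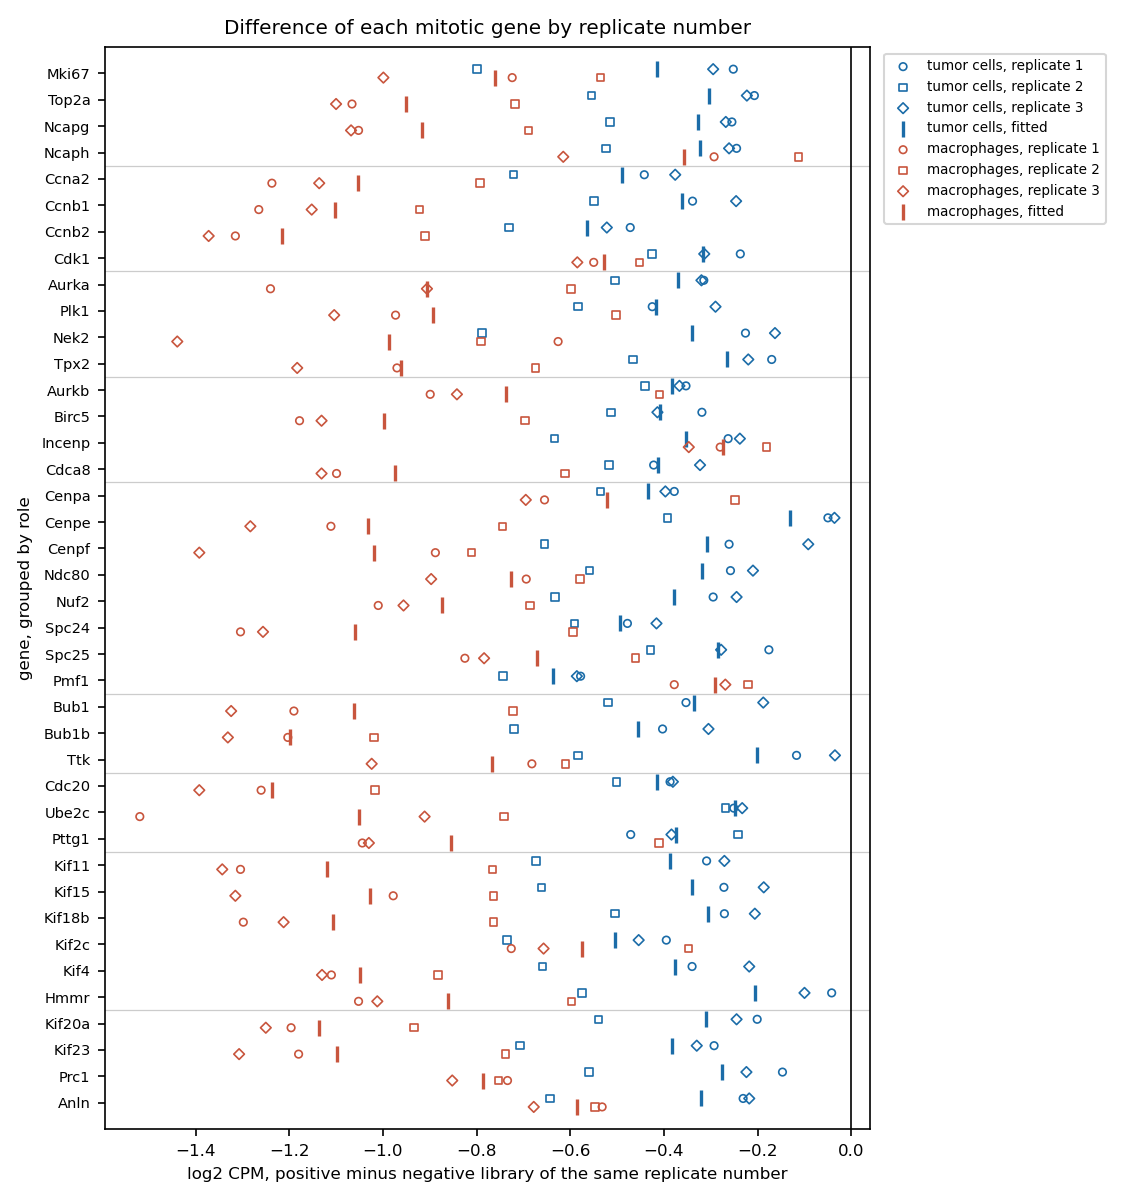
Difference in log2 CPM between the positive and the negative library of the same replicate number, for each of the 40 genes (rows, grouped by role), with replicates as open symbols, the unpaired fitted difference as a short bar and tumor cells (blue) apart from macrophages (red). All symbols lie left of 0, and the fitted macrophage bar lies left of the tumor bar for 38 of the 40 genes.

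The paired tests called 33 of the 40 lower in both comparisons, as they did 2.37% of the genes tested in both. Whether the macrophage difference was the larger was tested in a fit of all 12 libraries, as the tumor difference minus the macrophage difference. The median of this contrast over the 40 was 0.59 on the log2 scale, against 0.031 over all genes, and it was above 0 in 38. With the block 24 of the 40 passed in that direction and 0 in the other, where 7.99% of all genes passed in that direction and 3.69% in the other. Unpaired, edgeR called 0 of the 40 (0.375% of all genes), with 16 at an unadjusted p under 0.05. Of all 16279 genes, 1674 had such a p in either direction. DESeq2 called 0 of the 40 in either direction (0.958% and 0.474% of its 33300 genes). The difference between contrasts was 0.82 for Cdc20 (paired SE 0.11, adjusted p 0.00172), 0.82 for Kif20a (adjusted p 0.00301), 0.75 for Ccnb1 (adjusted p 0.00410) and 0.91 for Cenpe (adjusted p 0.00429). For Mki67 it was 0.33 (adjusted p 0.249) and for Cdk1 0.22 (adjusted p 0.164), which did not pass. Pmf1 and Incenp were the 2 genes with values below 0, at -0.33 (adjusted p 0.0547) and -0.087 (adjusted p 0.720). Left out in turn, replicate 1, 2 or 3 of both macrophage groups gave paired counts of 9, 28 and 12, beside 872, 1068 and 941 of all genes called higher. Replicate 1, 2 or 3 of both tumor groups gave 10, 24 and 9, beside 792, 920 and 797 of all genes.

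All 40 genes were more abundant in the tumor cells than in the macrophages, at folds of 1.5 for Mki67 to 13.6 for Ube2c with a median of 4.25, and all 40 passed the unpaired test, as did 40.6% of all genes in that direction. Every tumor library lay above every macrophage library for 36 of the 40, against 33.8% of all genes, and Mki67, Bub1, Kif15 and Kif23 were the exceptions. The cell types came in separate tables and cannot be told apart from library batch. Genes of the same role spanned a range of shares of the tumor level in the macrophages. Among the genes of anaphase, single macrophage libraries ran from 4.90 to 13.8% of the mean tumor level for Cdc20 and from 3.99 to 11.9% for Ube2c, but from 24.3 to 60.3% for Pttg1. Among those of chromosome structure they ran from 40.9 to 104% for Mki67 and from 13.5 to 40% for Top2a. Kinetochore genes ran from 12 to 36% for Spc24 and from 26 to 73% for Nuf2, and those of cytokinesis from 7.75 to 19.6% for Prc1 and from 13.8 to 43.4% for Kif23. These ranges overlapped between roles, and no difference between roles was tested.

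Levels were divided by exon length to compare genes, with the exons of all annotated transcripts of a gene merged. A gene whose main transcript is shorter than that reads too low, so the ranking depends on the annotation. On this scale Cdc20 ranked highest of the 40 in the tumor cells, at 145.9 CPM per kb in the reporter-negative and 109 in the reporter-positive cells. Ube2c (70.3 and 59.1), Ccnb2 (60 and 40.6), Plk1 (53.6 and 40.1) and Top2a (52.0 and 42.2) came next, and Nek2 (2.40 and 1.90) was the lowest. In the macrophages Mki67 led, with 22.7 CPM per kb in the FceRIa-negative and 13.4 in the FceRIa-positive cells. In the reporter-negative tumor cells it had stood below those 5 genes, at 28.5 CPM per kb. Ccnb2 (22.5 and 9.69), Top2a (17.2 and 8.90), Cdc20 (16.3 and 6.92) and Incenp (15.3 and 12.7) followed Mki67, and Nek2 (0.396 and 0.199) was again lowest. In FceRIa-negative macrophages Mki67 and Ccnb2 did not differ beyond their spread.

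**Figure D5:**
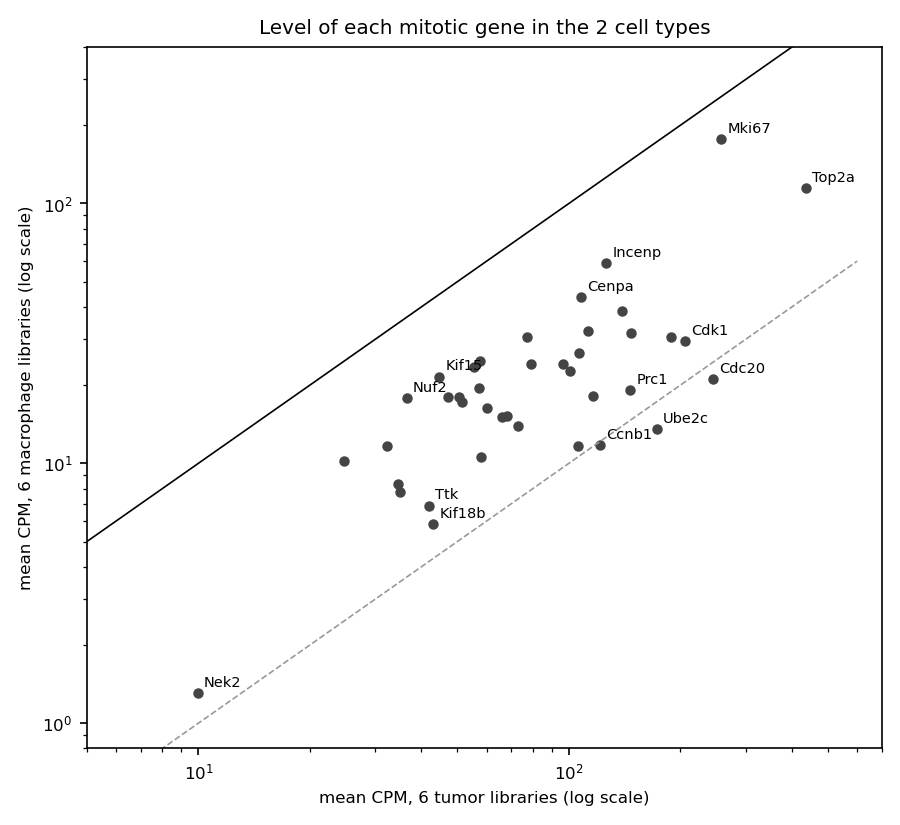
Mean CPM of each of the 40 genes over the 6 tumor libraries (x axis) and the 6 macrophage libraries (y axis), both on log scales after joint scaling; the solid line marks equal levels and the dashed line a 10-fold lower macrophage level. All points lie below the solid line, and Cdc20, Ube2c and Ccnb1 lie below the dashed line.

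Genes of the same pathway outside the 40 were counted from lists that had been drawn up with earlier results of these data known. Of 70 other mitotic genes, all measured, the tumor comparison called 1 lower unpaired, 9 by DESeq2 and 42 paired (0.235, 1.45 and 7.34% of all genes), with a median log2 difference of -0.33. The macrophage comparison called 0 unpaired by edgeR (0.0% of all genes). At an unadjusted p under 0.05, 55 were lower (7.35% of all genes). DESeq2 called 39 lower (1.94%) and the paired test 56 (10.2%), with a median log2 difference of -0.76. In the tumor cells the smallest p values were those of Ccnf (cyclin F; log2 difference -0.50, SE 0.060, adjusted p 0.0391 unpaired and 0.00713 paired), Cdca3 (log2 difference -0.39, SE 0.064, adjusted p 0.0579 unpaired and 0.00852 paired), the condensin subunit Ncapd2 (log2 difference -0.47, SE 0.086, adjusted p 0.0728 unpaired and 0.0117 paired) and the microtubule destabiliser Stmn1 (log2 difference -0.43, SE 0.080, adjusted p 0.0728 unpaired and 0.0118 paired). In the macrophages they were those of Kif22 (log2 difference -1.03, SE 0.16, adjusted p 0.0585 unpaired and 0.000796 paired), Knstrn (log2 difference -1.19, SE 0.19, adjusted p 0.0591 unpaired and 0.000859 paired), Spag5 (log2 difference -1.01, SE 0.18, adjusted p 0.0591 unpaired and 0.000559 paired) and separase, Espl1 (log2 difference -0.58, SE 0.10, adjusted p 0.0591 unpaired and 0.00116 paired). Knstrn and Spag5 encode partners at the kinetochore and spindle.

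Of 18 regulators of mitotic genes (E2F, RB, MuvB and their partners), 0 were called lower unpaired in the tumor cells by edgeR (0.235% of all genes). At an unadjusted p under 0.05, 3 were lower (8.34% of all genes). DESeq2 called 2 lower (1.45%) and the paired test 7 (7.34%), with a median log2 difference of -0.18. In the macrophages 0 were called unpaired (4 lower at an unadjusted p under 0.05), 3 by DESeq2, and 5 lower and 1 higher paired, with a median of -0.12. Of all genes 7.35% were lower at that unadjusted p, 1.94% lower by DESeq2, and 10.2% lower and 10.8% higher paired, so 1 higher of 18 is below the share of all genes. In the tumor cells E2f1, an activator of the S-phase genes, read 22.9, 25.2 and 22.6 against 18.9, 15.2 and 17.4 CPM (log2 difference -0.46, SE 0.10, adjusted p 0.0917 unpaired and 0.0280 paired). Rbbp4, a MuvB subunit, Rbl1 (p107), an RB relative, and E2f8, a repressor, fell in the paired test as well (folds 0.846, 0.775 and 0.885). In the macrophages Foxm1, the activator of the late cell cycle genes, read 14.5, 12.1 and 18.2 against 7.40, 7.15 and 8.52 CPM (log2 difference -0.95, SE 0.19, adjusted p 0.0694 unpaired and 0.00121 paired). E2f2 and E2f8 fell in the paired test with it, to 0.480-fold and 0.607-fold. The 1 regulator called higher was Rb1, the retinoblastoma protein, which read 76.4, 83 and 61.5 against 101, 100.1 and 86.7 CPM without overlap (log2 difference 0.38, SE 0.14, adjusted p 0.241 unpaired and 0.00887 paired).

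Of 24 DNA replication genes, which act before mitosis, 3 fell unpaired, 15 by DESeq2 and 23 paired in the tumor cells (0.235, 1.45 and 7.34% of all genes), with a median log2 difference of -0.45. All 24 had every positive library below every negative one, as did 13.6% of all genes. In the macrophages edgeR called 0 unpaired (0.0% of all genes). At an unadjusted p under 0.05, 12 were lower (7.35% of all genes). DESeq2 called 3 lower (1.94%) and the paired test 20 (10.2%), with a median log2 difference of -0.55. Mcm10, which starts replication forks, read 29.8, 32.5 and 29.4 against 17.7, 17 and 18.5 CPM in the tumor cells (log2 difference -0.79, SE 0.074, adjusted p 0.0341 unpaired and 0.00492 paired). Tyms (log2 difference -0.43, SE 0.058, adjusted p 0.0475 unpaired and 0.00664 paired), Rpa2 (log2 difference -0.57, SE 0.085, adjusted p 0.05 unpaired and 0.00977 paired) and Cdt1 (log2 difference -0.54, SE 0.085, adjusted p 0.0539 unpaired and 0.0119 paired) followed. In the macrophages Tk1, Pole, Rrm2 and Rrm1 had the smallest p, with folds of 0.609, 0.530, 0.539 and 0.702 and paired adjusted p of 0.00383, 0.00586, 0.00186 and 0.00705. In the tumor cells the median replication gene thus lay lower than the median of the 40 (-0.45 against -0.36), and in the macrophages the order was the other way (-0.55 against -0.96). Neither difference between lists was tested.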

How the data were processed

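RNA of 12 sorted mouse samples (4 groups of 3) was extracted with Trizol, per the labels' protocols, and 100 ng of each went into Illumina TruSeq v2 library preparation. The authors deposited 2 tables of raw read counts per gene, 1 for each cell type. The submitters' processing notes name STAR, FastQC and the mouse build mm10, without versions, and the counting tool is not given in the sources used here. Of the columns, 4 with other samples' values were not used. The tables were joined by gene ID (53801 genes, 53706 of them found in GENCODE M21). The members and all gene and marker lists were chosen with earlier results of these data known.

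Counts were tested with edgeR 4.0.16 (R 4.3.3, limma 3.58.1) by the quasi-likelihood test after TMM scaling and filterByExpr, which kept 99.94% of tumor and 99.92% of macrophage counts. P-values were adjusted by Benjamini-Hochberg over all genes tested, at a threshold of 0.05. Each cell type was fitted on its own 6 libraries, and the difference between contrasts and between cell types on all 12. Group was the only term, and replicate number as a blocking term was the paired alternative. Deviations from group means correlated between libraries of equal number (0.449, 0.703 and 0.488 in tumor cells, 0.688, 0.787 and 0.734 in macrophages), so numbers were taken to pair the samples from the data and not from the labels. In tumor cells negative replicate 1 correlated as well with positive replicate 3 (0.488), so numbers 1 and 3 are not told apart. The column headers of macrophage replicate 2 carry the word New in both groups, unlike those of replicates 1 and 3. What the word marks is not given in the sources used here. The unpaired fit leaves 4 residual degrees of freedom per cell type and the paired fit 2.

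DESeq2 1.42.0, other scaling factors and count filters, each library or replicate number left out, and tumor replicates 1 and 3 summed were the alternatives. The paired fit of the summed replicates was added after seeing the data. DESeq2 was run without edgeR's filter on low counts, so its shares of all genes are over more genes than those of edgeR. Genes that its own default filter left without an adjusted p count as not called, so these shares may be too low. The code was tested on simulated data. Totals ran from 27951632 to 40041144 counts, and 3 counts, the limit that a count of 0 allows, were 0.0698 to 0.107 CPM. Full values are given for 14 preset members, the 6 of smallest unpaired p and the 3 with the highest and the 3 with the lowest log2 difference in each comparison, and up to 4 genes of smallest p from each other list. Full values of Kif23 in tumor cells and Nek2 in macrophages were added after they were seen. Promoter windows came from RefSeq on GRCm38.p6.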

Additional observations from a re-analysis of the deposited data

Results flagged for a closer look

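The difference of 24 of the 40 mitotic genes between FceRIa-positive and FceRIa-negative macrophages was larger than that between reporter-positive and reporter-negative tumor cells, by a direct test of the 2 contrasts with replicate number as a block (edgeR quasi-likelihood test, adjusted p under 0.05, where 7.99% of all genes passed in that direction). The same test without the block called 0 of the 40, with 16 at an unadjusted p under 0.05, and DESeq2 called 0. Of all 16279 genes, 1674 had such an unadjusted p in either direction. The contrast was above 0 in 38 of the 40 genes. The paired count ran from 9 to 28 when the libraries of a single replicate number were left out of a cell type. Cell type cannot be told apart from library batch.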

How the results depend on the processing

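Replicate number as a block moved most counts. In the tumor cells (32 genes lower and 78 higher unpaired, 2 mitotic genes lower) the replicate block gave 999 lower and 1450 higher, with 34 mitotic genes. The paired fit without replicate 1 gave 498 and 1055 with 32, without replicate 2 gave 2802 and 2927 with 36, and without replicate 3 gave 340 and 803 with 24. The unpaired fit without replicate 2 gave 2619 and 2782 with 36. Summing replicates 1 and 3 gave 0 and 0 with 0 unpaired, and 244 and 691 with 15 paired. The unpaired edgeR fit of the sums had 4 mitotic genes lower at an unadjusted p under 0.05, beside 290 of all genes. DESeq2 gave 360 and 640 with 4, and no filter on low counts gave 173 higher. Leaving out single libraries gave 0 to 230 lower, 0 to 391 higher and 0 to 4 mitotic genes, with a median log2 difference from -0.468 to -0.172.

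In the macrophages (0 called unpaired by edgeR) the replicate block gave 1524 lower and 1618 higher with 39 mitotic genes lower. The paired fit without replicate 1 gave 691 and 626 with 28, without replicate 2 gave 1374 and 1298 with 37, and without replicate 3 gave 1606 and 1743 with 36. DESeq2 gave 612 and 581 with 35, and no filter on low counts gave 331 and 292 with 23. Single libraries left out gave 0 to 2 lower.

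For the difference between contrasts (19 genes lower, 61 higher, 0 mitotic genes unpaired) the replicate block gave 600 lower and 1300 higher with 24 mitotic genes higher. Paired, without macrophage replicate 1 it gave 395 and 872 with 9, without replicate 2 it gave 579 and 1068 with 28, and without replicate 3 it gave 450 and 941 with 12. Paired, without tumor replicate 1 it gave 279 and 792 with 10, without replicate 2 it gave 453 and 920 with 24, and without replicate 3 it gave 295 and 797 with 9. DESeq2 gave 158 and 319, no filter 38 and 109, the unpaired fit without tumor replicate 2 gave 4 and 9, and summed tumor replicates gave 0 and 0. Single libraries left out gave 0 to 33 lower and 0 to 91 higher. On the given strand alone, 18 of 34 promoters held CCAAT (21.1% of all promoters) and 22 of 34 a CHR match (11.6%).

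Signs turned in 18 single-gene values, all between -0.126 and 0.117, and the cause was not tested. In the tumor cells Cenpe ran from -0.269 to 0.063 and Ttk from -0.361 to 0.028 with single libraries left out, and the high ends were those without positive replicate 2. For the difference between contrasts, Incenp was at 0.023 unpaired and 0.018 paired without tumor replicate 2, and at 0.016 without FceRIa-negative replicate 2 and 0.117 without reporter-positive replicate 2. With single libraries left out Incenp ran from -0.176 to 0.117, Kif2c from -0.034 to 0.279 and Ncaph from -0.098 to 0.229. Kif2c was at -0.014 paired without macrophage replicate 1, and at -0.009, -0.034, -0.021 and -0.019 without FceRIa-positive 1, reporter-negative 2, reporter-positive 1 and reporter-positive 3. Ncaph was at -0.031, -0.014 and -0.126 paired without tumor replicate 1, tumor replicate 3 or macrophage replicate 3, and at -0.098, -0.07, -0.048 and -0.055 without FceRIa-negative 3, reporter-negative 2, reporter-positive 1 and reporter-positive 3. Every scaling kept all 40 genes below 0 in both comparisons. The lowest count of any of the 40 in any library was 30 (Nek2), above the 3 counts that a count of 0 allows.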
